A study of Mus musculus with 4 samples.

Results

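The immunoglobulin kappa variable (Igkv) genes encode the antigen-binding domain of the kappa light chain, and their transcripts were followed here across 4 RNA-seq libraries of mouse intestine. Members were all genes whose symbol starts with Igkv followed by a family number, a hyphen and a gene number, which gave 160 of the 55203 genes listed. The values were FPKM (fragments scaled to transcript length and to the mapped fragments of the library), summed over the transcripts of a gene. The libraries came from wild-type C57BL/6NTac males of 8 to 12 weeks kept specific-pathogen-free, 2 of them labelled as processed with 4 mM RVC, a ribonucleoside vanadyl complex that inhibits ribonucleases, and the other 2 labelled fresh frozen (FF). The 4 libraries carry the batch numbers 1 to 4, a different number for each, and batch therefore cannot be told apart from group. The labels do not say that the samples are separate animals or whether any were pooled, so the p-values measure only the spread between these samples, which may be technical. The protocol text, shared by all 4, describes rinsing in RVC, and it names distal colon where the sample labels name ileum. Car1, a carbonic anhydrase of colon epithelium, measured 1781 and 1654 FPKM in RVC 1 and 2 and 1608 and 1576 in FF 1 and 2, whereas Fabp6, the ileal bile acid binding protein, lay between 2.70 and 3.96 FPKM. The labelled tissue is therefore not borne out by these 2 markers.

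A developing B cell joins a single variable gene to a joining gene (Igkj) on each rearranged kappa allele, and the joined exon is then spliced to the constant exon Igkc. A B cell and all its descendants thus transcribe mainly the variable gene they rearranged, and the plasma cells of the gut wall, most of which secrete IgA, transcribe it at a very high level. Promoters of variable genes carry an octamer bound by POU-domain factors, and each gene is followed by a recombination signal, a heptamer and a nonamer separated by a spacer, where the RAG recombinase cuts.

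All 160 members matched the GENCODE vM39 annotation of GRCm39 by identifier, 157 of them at exactly the same coordinates. They span 3.15 Mb of chromosome 6, at chr6:67532481-70681161, upstream of Igkj1, which starts at 70699546. On the + strand, the direction in which Igkc is read, lie 75 members, and 85 lie on the − strand. The annotation calls 100 of them functional variable genes and 60 variable pseudogenes.

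The sequences below show the recombination signal directly behind the variable exon of the 5 genes of highest mean usage share, of Igkv4-63, which led 1 library, and of Igkv10-95, a little used relative of Igkv10-96. They were read from GRCm39, with the heptamer and the nonamer positions in capitals and the 12-base spacer in lower case. 
Igkv10-96 (chr6:68608919-68608946, − strand): CACAATGatataagtcataACATAAACC
Igkv10-95 (chr6:68657833-68657860, + strand): CACAATGatataagtcataACATAAACC
Igkv8-27 (chr6:70148765-70148792, − strand): CACAATGcttcagcctcctACAAAAACC
Igkv6-23 (chr6:70237365-70237392, − strand): CACAGTGcttcagcctcctACATAAACC
Igkv6-15 (chr6:70383425-70383452, − strand): CACAGTActtcagcctcctACATAAACC
Igkv19-93 (chr6:68713253-68713280, − strand): CACAGTGatacaaatcataACAAAAACC
Igkv4-63 (chr6:69354900-69354927, − strand): CACAGTGatacagactggaAAAAAACCT

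The heptamer CACAGTG, read on the gene's strand directly behind the exon, stood behind 87 of the 100 functional genes and behind 22 of the 60 pseudogenes (36.7%). The nonamer ACAAAAACC at a spacing of 12 bases stood behind 34 functional genes, and ACATAAACC behind 24. In Igkv4-63 the 9 bases at that spacing differed from ACAAAAACC at 3 positions. The spacing was fixed for all genes, and in this gene the 9 bases read nearer the heptamer by a base match ACAAAAACC more closely. The 6 functional genes with CACAATG, Igkv10-96 and Igkv8-27 among them, held 19.9% of the Igkv transcript level on average over the 4 libraries. The 24 genes with ACATAAACC held 36.9%, and the 34 with ACAAAAACC held 31.1%.

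The next sequences are 56-base stretches upstream of the annotated gene start, on the gene's strand, with the octamer or its last 7 bases in capitals. They show the 2 forms of the element found among the most used genes.
Igkv10-96 (chr6:68609476-68609531, − strand): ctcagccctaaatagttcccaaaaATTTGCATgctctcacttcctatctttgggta
Igkv10-95 (chr6:68657246-68657301, + strand): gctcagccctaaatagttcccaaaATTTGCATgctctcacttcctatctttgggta
Igkv19-93 (chr6:68713815-68713870, − strand): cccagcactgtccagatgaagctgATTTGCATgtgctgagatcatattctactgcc
Igkv4-63 (chr6:69355532-69355587, − strand): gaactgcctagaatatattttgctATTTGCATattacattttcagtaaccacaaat
Igkv4-72 (chr6:69204443-69204498, − strand): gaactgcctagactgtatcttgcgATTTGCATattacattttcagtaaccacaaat
Igkv6-23 (chr6:70237986-70238041, − strand): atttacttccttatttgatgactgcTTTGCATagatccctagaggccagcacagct
Igkv6-15 (chr6:70384045-70384100, − strand): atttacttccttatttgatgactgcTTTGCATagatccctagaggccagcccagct
Igkv8-27 (chr6:70149322-70149377, − strand): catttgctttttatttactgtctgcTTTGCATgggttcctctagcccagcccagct

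Both strands of the 250 bases before the gene start were searched for ATTTGCAT. It was found on the gene's strand in 72 of the 100 functional genes and 21 of the 60 pseudogenes (35.0%), against 0.970% of all 78287 annotated genes, and on the opposite strand in 2 functional genes. None of the 20 functional genes of families 6, 7 and 8 held it, against 72 of the other 80. The 7-base core TTTGCAT, which lies within the octamer and was chosen after the sequences were seen, stood on the gene's strand in 97 of the 100 functional genes, 24 of the 60 pseudogenes and 2.61% of all annotated genes. CTTTGCAT was the form in 19 functional genes, 16 of them in families 6, 7 and 8. TTTTGCAT was the form in 6 others, 3 of them in these families. Those 3 families together held 30.4 ± 3.02% of the Igkv transcript level (SD, n = 4 libraries).

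The frequency of each element was compared between functional genes that reached a mean of 1 FPKM and those that did not, with no test. The octamer stood before 46 of the 65 that reached it (70.8%) and 26 of the other 35 (74.3%). The core stood before 63 of 65 and 34 of 35, the heptamer CACAGTG behind 57 of 65 (87.7%) and 30 of 35 (85.7%), and the nonamer ACAAAAACC behind 22 of 65 (33.8%) and 12 of 35 (34.3%). TATAAA, searched on both strands of the same window, was present in 61 of the 100 functional genes, 23 of the 60 pseudogenes and 15.4% of all annotated genes. It stood before 42 of the 65 that reached 1 FPKM (64.6%) and 19 of the other 35 (54.3%). These matches describe the letters in the window only.

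Of the 160 members, 65 had a mean of at least 1 FPKM over the 4 libraries, and all 65 were annotated as functional. The lowest of them was Igkv3-1 at 1.18 FPKM, and the first below the threshold was Igkv1-122 at 0.954 FPKM. A further 28 functional genes had lower means above 0, and 59 members, 52 pseudogenes and 7 functional genes, were listed at 0 in every library. No pseudogene reached the threshold, the highest being Igkv4-60 at a mean of 0.522 FPKM, and functional genes held between 99.7% and 99.8% of the summed Igkv FPKM in each library. Reaching 1 FPKM in all 4 libraries were 47 members, in 3 libraries 8, in 2 libraries 8, in a single library 16 and in none 81.

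The summed Igkv level was 897 FPKM in RVC 1, 818 in RVC 2, 409 in FF 1 and 704 in FF 2. Both RVC libraries lay above both FF libraries, and FF 1 was the lowest. The mean was 858 ± 55.8 FPKM in RVC and 557 ± 208 in FF (SD, n = 2 each), a ratio of 1.54 or a log2 difference of 0.62, which was 0.29 without FF 1 and 1.07 without FF 2. In bulk tissue, fewer cells of a type and less RNA per cell cannot be told apart.

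Usage was measured as a gene's share of the summed Igkv FPKM in the same library, which removes differences in the total. It was spread over many genes, and the largest share of any gene in any library was 10.7%. The effective number of genes, the number of equally used genes that would give the same Shannon entropy, was 40.6 in RVC 1, 38.2 in RVC 2, 37.4 in FF 1 and 35.5 in FF 2. By the inverse Simpson index, which weights the leading genes more, it was 25.9, 24.8, 23.6 and 23.7 in the same order. Both indices were higher in the RVC libraries, which had the higher totals and also the larger number of members at 1 FPKM or more, 65 and 67 against 55 and 57. With 2 libraries against 2, an exact permutation test cannot reach 0.05, so none was run on these indices.

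The 10 leading genes of each library held 52.8%, 56.2%, 54.1% and 56.8% of usage in RVC 1, RVC 2, FF 1 and FF 2. Between 8 and 10 genes made up 50% of usage, and between 33 and 42 made up 90%. The leading gene was Igkv10-96 in RVC 1 (9.16%), Igkv4-63 in RVC 2 (8.61%) and Igkv8-27 in both FF libraries (10.7% and 7.90%). In all, 17 genes were among the 10 leading genes of some library, and 4 were among them in every library.

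**Figure D1:**
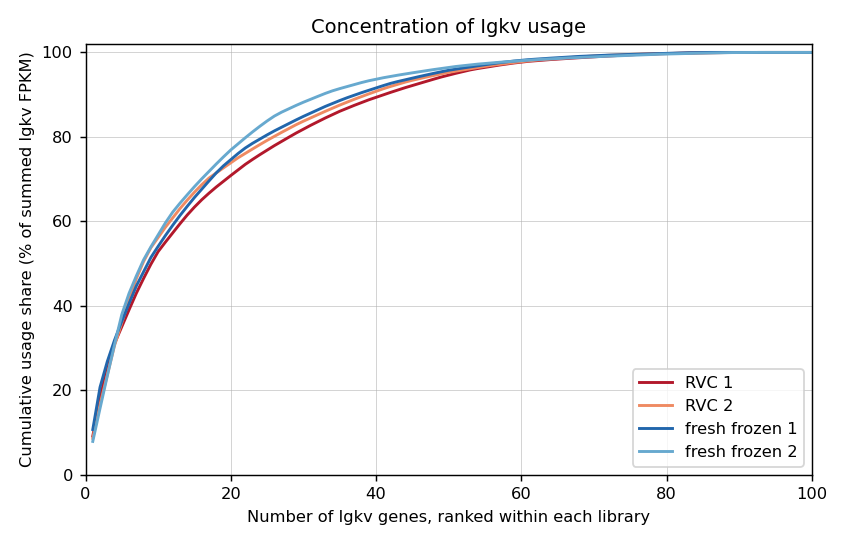
Cumulative usage share (percent of summed Igkv FPKM, y axis) against the number of Igkv genes ranked by share within each library (x axis), 1 line for each library. The 4 lines lie close together and reach 50% at 8 to 10 genes.

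Igkv10-96 (ENSMUSG00000094420, chr6:68608947-68609426, − strand) had the highest mean share, 7.76 ± 2.64% (SD, n = 4). Its level was 82.2 FPKM in RVC 1, 33.1 in RVC 2, 41.0 in FF 1 and 55.1 in FF 2. The groups overlapped, since the highest and the lowest value were both in RVC.

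Igkv8-27 (ENSMUSG00000076580, chr6:70148793-70149254) measured 67.1, 19.8, 43.8 and 55.6 FPKM in RVC 1, RVC 2, FF 1 and FF 2, a share of 7.13 ± 3.45%. RVC 2 was the low library, with a share of 2.42% against 7.48% to 10.7% elsewhere. Igkv6-23 (ENSMUSG00000095630, chr6:70237393-70237939) measured 80.4, 57.6, 18.3 and 54.1 FPKM in the same order, and its share of 7.04 ± 1.89% varied less. Igkv6-15 (ENSMUSG00000094797, chr6:70383453-70383976) measured 49.1, 56.8, 13.9 and 52.5 FPKM, a share of 5.82 ± 1.83%. Both family 6 genes were low in FF 1 alone, and the order of these 4 leading genes by mean share was not separated by more than their spread.

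The next 6 genes by mean share were Igkv19-93 (4.23 ± 2.71%), Igkv5-48 (3.78 ± 2.82%), Igkv4-72 (3.56 ± 1.26%), Igkv4-59 (3.37 ± 0.865%), Igkv10-94 (3.37 ± 1.33%) and Igkv1-117 (3.01 ± 1.66%), and neighbours in this order did not differ beyond their SD. Igkv19-93, the sole member of its family, was high in RVC 2, at 65.7 FPKM against 26.9, 16.9 and 12.3 in RVC 1, FF 1 and FF 2. Igkv5-48 went the other way, with 16.9 and 8.47 FPKM in RVC but 20.8 and 50.0 in FF. Igkv1-117 was also high in RVC 2, at 44.5 FPKM against 19.5, 10.8 and 12.5, as was Igkv1-110 at 43.2 against 12.1, 10.5 and 13.0 FPKM. The 2 family 1 genes are 97.5% identical in sequence, so reads can be divided between them and their values are uncertain to that extent.

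**Figure D2:**
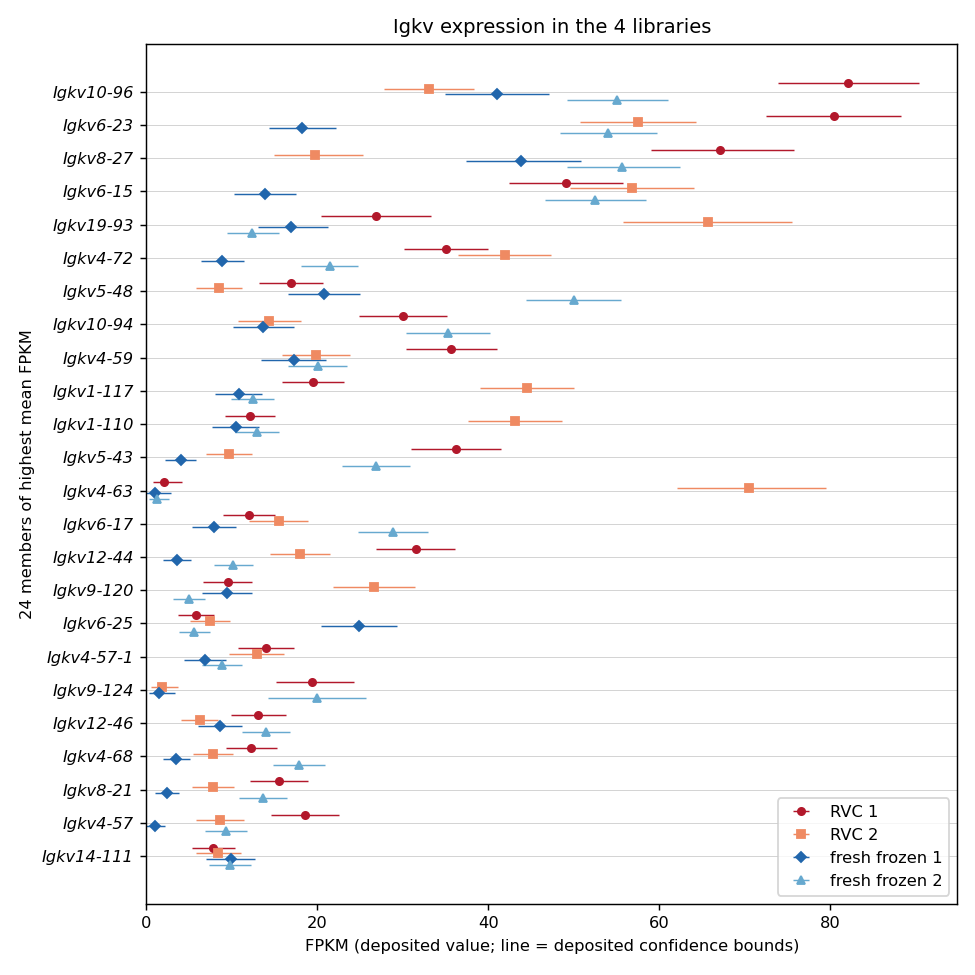
Level in FPKM (x axis) of the 24 Igkv genes of highest mean FPKM (rows), 1 point for each library. The line gives the deposited confidence bounds, summed over the transcripts of a gene. The highest library differs from gene to gene, with Igkv8-27 lowest in RVC 2 and Igkv19-93, Igkv1-117 and Igkv4-63 highest there.

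The steadiest usage among the 40 genes of highest mean share was that of Igkv4-57-1, with 14.0 and 12.9 FPKM in RVC and 6.87 and 8.87 in FF, a coefficient of variation of 11.9% in usage share. Igkv4-59 followed at 25.7%, then Igkv6-23 at 26.9%, Igkv6-15 at 31.4% and Igkv10-96 at 34.0%. Of these 5, 4 were among the 10 most used genes.

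A gene was called library-specific when a single library held at least 70% of the sum of its 4 usage shares. Of the 65 genes, 5 met this, 3 of them in FF 1 and 1 each in RVC 2 and FF 2. RVC 1 had none. The rule was applied to Igkv genes only, so no share over all genes stands beside this count. The 65 genes were taken by their mean over all 4 libraries, so a gene can enter through the library where it is high. Igkv4-86 and Igkv12-89 reached a mean of 1 FPKM only in this way, and the count is partly set by the filter. Just inside the threshold was Igkv9-123 at 71.3%, and just outside was Igkv3-1 at 67.4%, which was highest in RVC 1.

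Igkv4-63 (ENSMUSG00000076550, chr6:69354928-69355456) was the most uneven. It measured 70.5 FPKM in RVC 2, with Cufflinks confidence bounds of 62.1 to 79.6, and 2.09, 1.07 and 1.22 FPKM in RVC 1, FF 1 and FF 2. RVC 2 held 92.8% of its summed shares, and its share there was 32.8 times that in the next library. No stretch of 100 bases of its sequence occurs in another member, and its nearest relative, Igkv4-59, is 93.5% identical and was not high in RVC 2, at 19.8 FPKM against 35.7 in RVC 1.

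Igkv6-25 was high in FF 1, at 24.9 FPKM against 5.84, 7.42 and 5.63 in RVC 1, RVC 2 and FF 2, although that library had the lowest Igkv total. It shares 18.9% of its 100-base stretches with other members, and its nearest relative, Igkv6-17 (95.5% identical), measured 12.0, 15.5, 7.95 and 28.9 FPKM in RVC 1, RVC 2, FF 1 and FF 2. Reads can be divided between these 2 genes, so both values are uncertain to that extent. Igkv4-86 was specific to the same library at a lower level, with 5.99 FPKM against 0.741, 0.596 and 0.264. Igkv9-123 measured 4.54 FPKM there, 2.84 in RVC 2, 0.710 in FF 2 and was listed at 0 in RVC 1. Igkv12-89 was highest in FF 2, at 5.64 FPKM against 1.19, 0.238 and 0.247 in RVC 1, RVC 2 and FF 1. For Igkv9-123 and Igkv12-89 the bounds of the highest library overlapped those of another library, and for Igkv4-63, Igkv6-25 and Igkv4-86 they did not.

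For 26 of the 65 genes, Igkv4-63, Igkv6-25 and Igkv4-86 among them, the lower bound in the highest library lay above the upper bounds of all others, with 11 such genes in RVC 1, 8 in RVC 2, 2 in FF 1 and 5 in FF 2. No share over all genes is available for this criterion, so the count does not show whether Igkv genes are unusual in it. A further 6 genes had 60% to 70% of their summed shares in a single library. They were Igkv3-1 and Igkv12-98 in RVC 1, Igkv4-79 and Igkv14-100 in RVC 2, Igkv5-45 in FF 2 and Igkv4-91 in FF 1.

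Libraries of the same group differed widely in single Igkv genes. Between RVC 1 and RVC 2, 27 of the 65 genes (41.5%) were at least 2-fold apart, against 0.726% of the 13771 genes tested. Between the FF libraries 30 of 65 (46.2%) were, against 0.857%. The confidence bounds did not overlap for 32 genes in RVC and 26 in FF, against 5.31% and 9.82% of all genes. These bounds were summed over the transcripts of a gene, which can widen them for genes with several transcripts. The rates for Igkv genes and all genes are therefore not strictly alike. The median absolute log2 difference within a group was 0.83 in RVC and 0.87 in FF for Igkv genes, and 0.13 and 0.16 for all genes tested. The heavy chain variable genes (Ighv), which are built alike, had 36.1% and 45.8% of their 72 tested genes at least 2-fold apart in the same pairs.

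**Figure D3:**
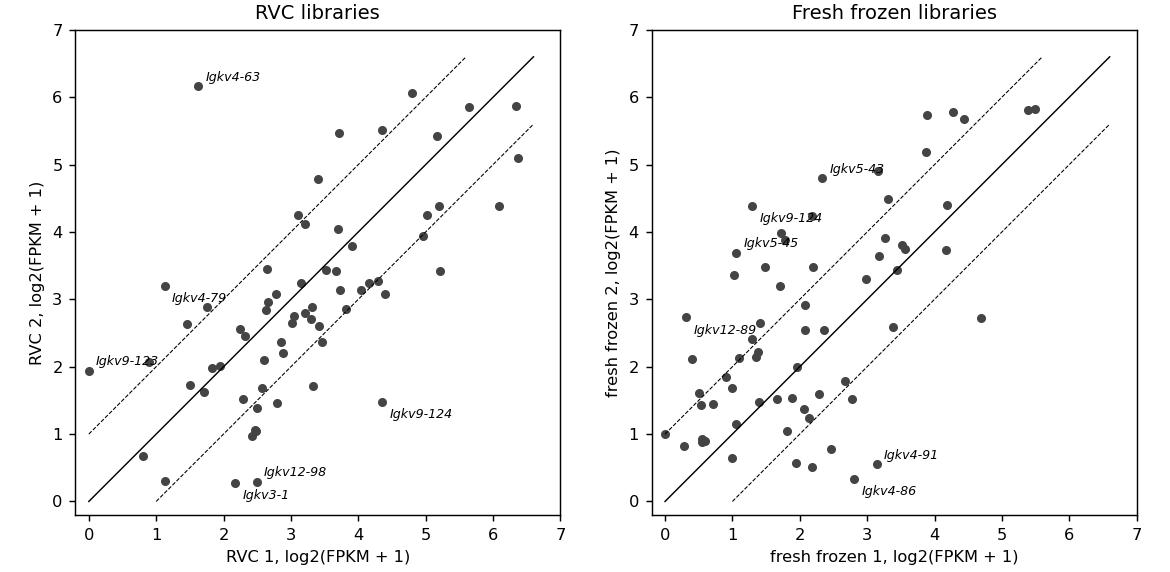
Level of each of the 65 Igkv genes, log2(FPKM + 1), in the first library of a group (x axis) against the second (y axis), RVC on the left and FF on the right, with a solid line of equality and dashed lines 1 log2 unit away. Points scatter beyond the dashed lines in both groups, and Igkv4-63 stands farthest from the line in RVC.

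The overlap of usage, the summed smaller share of each gene, was 65.8% for the RVC pair and 67.4% for the FF pair. Across groups it was 70.9% and 76.3% for RVC 1 with FF 1 and 2, and 59.6% and 58.8% for RVC 2 with the same libraries. RVC 1 thus overlapped more with both FF libraries than with RVC 2. Without the 10 most used genes its overlap was 60.7% with RVC 2, 59.4% with FF 1 and 67.5% with FF 2, so the order held for FF 2 only. Pearson's r of log2(FPKM + 1) across the 65 genes, which share their library and are not replicates, ran from 0.53 to 0.75 over the 6 pairs, whereas across all genes tested it ran from 0.98 to 0.99.

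Usage by family was led by Igkv4, with 20.6 ± 4.89% of the total from 33 members, and Igkv6, with 19.4 ± 1.85% from 9 members (SD, n = 4). Family 4 took 20.3% and 27.7% in RVC but 17.5% and 17.1% in FF, and Igkv4-63 alone made up 8.61% of usage in RVC 2. Family 6 was even, at 18.6%, 19.4%, 17.7% and 22.0% in RVC 1, RVC 2, FF 1 and FF 2, although its member Igkv6-25 was not. Family 5 ran from 2.97% in RVC 2 to 14.7% in FF 2, and family 10 from 5.92% in RVC 2 to 13.4% in FF 1. Of the 20 families, 16 had a member at a mean of 1 FPKM or more, and families 7, 11, 18 and 20 had none.

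**Figure D4:**
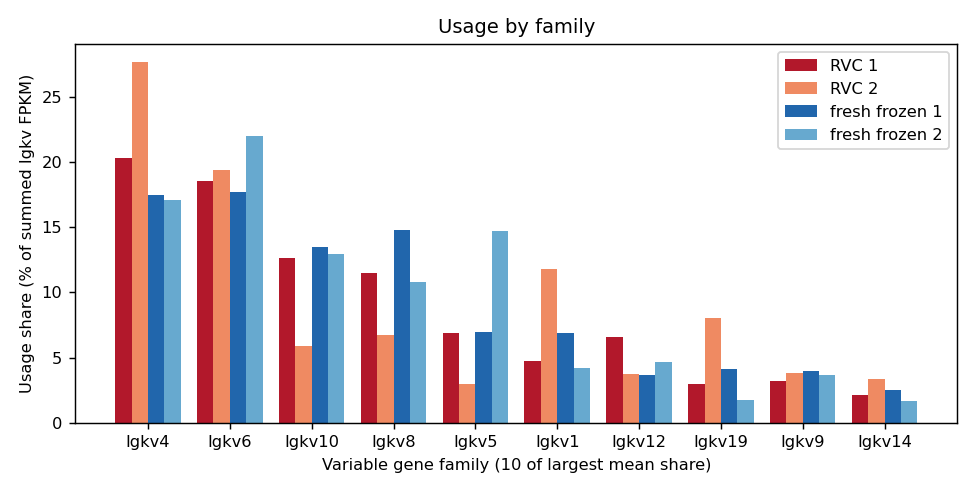
Usage share (percent of summed Igkv FPKM, y axis from 0) of the 10 families of largest mean share, 1 bar for each library. Igkv4 is highest in RVC 2, Igkv5 in FF 2, and Igkv6 and Igkv9 are even across the 4 libraries.

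Family 10 shows how far usage can differ among related genes. Its 3 members are all annotated as functional, and the recombination signals and octamers printed above for Igkv10-96 and Igkv10-95 are the same. Igkv10-95 is 94.2% identical to Igkv10-96 and 97.1% identical to Igkv10-94, yet it measured 1.07, 0.954, 0.285 and 0.649 FPKM in RVC 1, RVC 2, FF 1 and FF 2. Igkv10-94 measured 30.0, 14.4, 13.7 and 35.3 FPKM in the same order. Igkv10-95 was below both relatives in every library, it has no stretch of 100 bases in common with another member, and it lies on the + strand whereas both relatives lie on the − strand. The cause of its low level was not tested.

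By position, the 50 members within 1 Mb of Igkj1 held 44.2 ± 7.33% of usage, the 57 members at 1 to 2 Mb 26.4 ± 6.59%, the 48 at 2 to 3 Mb 28.3 ± 2.60% and the 5 beyond 3 Mb 1.06 ± 0.390% (SD, n = 4 libraries). The same bins held 40, 31, 27 and 2 functional genes. Members read in the direction opposite to Igkc held 76.8 ± 5.15% of usage, with 62 functional genes, and those in the same direction 23.2 ± 5.15%, with 38. Genes read in the direction of Igkc are joined by deletion of the DNA between, and those read in the opposite direction by inversion. The joined segments themselves were not measured here.

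**Figure D5:**
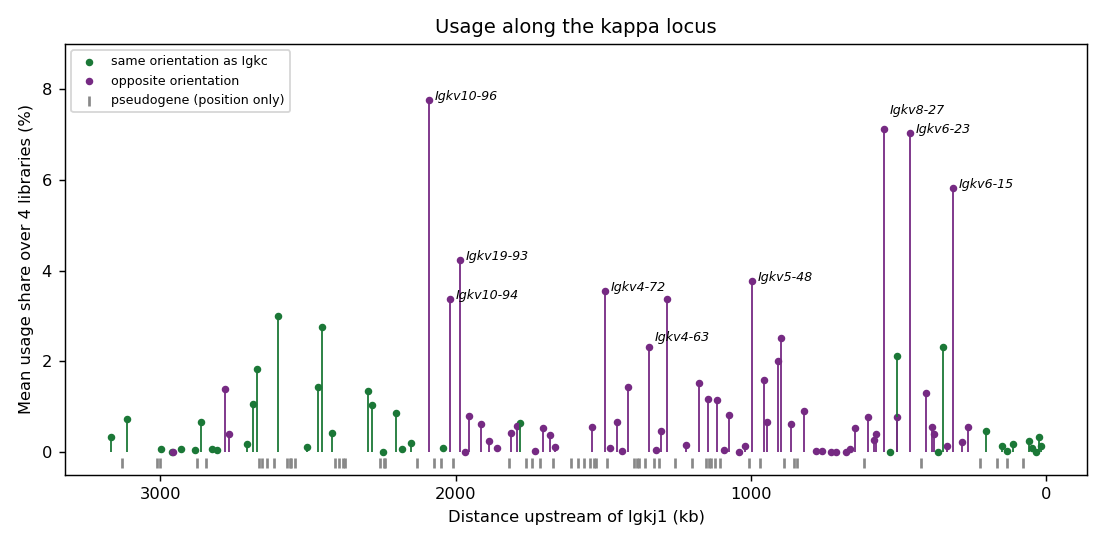
Mean usage share of each Igkv gene (percent, y axis) by its distance upstream of Igkj1 in kb (x axis), coloured by reading direction relative to Igkc, with pseudogenes as grey ticks. Used genes lie along the locus, and Igkv10-96, Igkv8-27, Igkv6-23 and Igkv6-15, all read opposite to Igkc, stand highest.

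For RVC against FF, limma was fitted to log2(scaled FPKM + 1) over 13771 genes, and fold changes are on that scale, which understates those of low genes. The filter of a mean of at least 1 FPKM and 300 nt of transcript let 65 Igkv genes through, and 95 were not tested. No Igkv gene passed an adjusted p of 0.05, where 0.0363% of all genes did. The smallest adjusted p was 0.0570, for Igkv4-80, with 7.23 and 5.71 FPKM in RVC and 1.64 and 1.78 in FF (log2 fold change 1.46, SE 0.15). With a library left out the count was 6 without RVC 1, 1 without RVC 2, 9 without FF 1 and 7 without FF 2, where 29, 8, 40 and 22 of all genes tested were called.

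At an unadjusted limma p under 0.05, 25 of the 65 were higher in RVC, where 9.38% of all genes were, and 1 was lower, where 8.99% were. In limma each gene's variance is drawn towards that of all genes tested, and Igkv genes varied more within groups. Their p-values are therefore likely too small, and these counts may be overstated. Both RVC values lay above both FF values in 25 genes (38.5%; all genes 26.5%) and below them in 2 (all genes 26.6%). Both counts of 25 include Igkv3-2, Igkv6-14, Igkv3-7 and Igkv4-58, whose FF means were 0.770, 0.681, 0.689 and 0.506 scaled FPKM. The filter used the mean over all 4 libraries, so these genes passed it only through RVC. That limit can apply to any gene tested. The log2 fold change was positive in 49 and negative in 16, with a median of 0.72, against 0.0066 over all genes tested. For the 72 tested Ighv genes the median was 0.67, with 30 that did not overlap and were higher in RVC. Over the 4 pairings of libraries across groups the Igkv median ran from 0.33 to 1.10, and it was 0.46 without FF 1.

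Among genes whose groups did not overlap, the largest positive fold change was that of Igkv4-63, at 2.80 (SE 1.20, limma adjusted p 0.274), and it was 0.53 without RVC 2. Igkv14-100 measured 7.60 and 18.1 FPKM in RVC and 0.446 and 1.71 in FF (log2 fold change 2.70, SE 0.41, limma adjusted p 0.112). Igkv8-24 measured 10.5 and 9.85 against 2.51 and 1.05 FPKM, a change of 2.06 (SE 0.24, limma adjusted p 0.0743). In Igkv8-24 the RVC libraries were close to each other, and the spread between them was far smaller than the distance to the FF pair.

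Igkv12-44 measured 31.5 and 18.0 FPKM in RVC and 3.60 and 10.2 in FF, with a log2 fold change of 1.80 (SE 0.42, limma adjusted p 0.134). Igkv17-121 measured 20.1 and 7.47 against 2.88 and 2.99 FPKM, with 1.77 (SE 0.37, limma adjusted p 0.129). Only Igkv5-48 and Igkv14-111 were lower in both RVC libraries, with log2 fold changes of -1.35 (limma adjusted p 0.187) and -0.24 (limma adjusted p 0.306). Igkv14-111 was nearly level, at 7.85 and 8.45 FPKM in RVC and 9.90 and 9.79 in FF.

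The most used genes did not share a direction. Igkv10-96 had a log2 fold change of 0.14 (limma adjusted p 0.864) and Igkv8-27 of -0.42 (limma adjusted p 0.653), whereas Igkv6-23 had 1.09 (limma adjusted p 0.256), Igkv6-15 0.94 (limma adjusted p 0.353) and Igkv19-93 1.49 (limma adjusted p 0.138). The direction of Igkv10-96 turned to -0.51 without RVC 1, that of Igkv8-27 to 0.44 without RVC 2, and that of Igkv6-15 to near 0 without FF 1.

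Other antibody genes are given beside the Igkv total. Igkc, the kappa constant exon, measured 525 and 484 FPKM in RVC and 172 and 307 in FF, and the groups did not overlap (log2 fold change 1.14, SE 0.26, limma adjusted p 0.131). The ratio of summed Igkv to Igkc was 1.71 and 1.69 in RVC and 2.38 and 2.30 in FF, so the FF libraries had less Igkc for the same Igkv level, with a gap larger than the spread within groups. The ratio of summed Ighv to Igha, the IgA heavy chain constant gene, averaged 2.16 ± 0.0862 in RVC and 3.54 ± 0.168 in FF (SD, n = 2 each). No other heavy chain constant gene entered this ratio, so it is not a like counterpart of Igkv to Igkc. Iglv1 to Iglc1, the lambda counterpart, was 1.25 and 1.14 against 1.04 and 1.03, in the other direction. Igkj1 to Igkj5, very short segments, were listed at 0 in every library. Kappa made up 81.0% and 83.4% of the light chain constant FPKM in RVC and 74.2% and 82.2% in FF.

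Marker lists were set beside these values, and their part in the Igkv difference was not tested. The 12 plasma cell genes summed to 1069 and 964 FPKM in RVC and 455 and 655 in FF, mostly Igkc and Igha, and of the 8 tested 3 were higher at an unadjusted limma p under 0.05 (all genes 9.38%) and none passed adjustment. These 3 were Igkc, Igha and Mzb1, a chaperone gene of antibody-secreting cells, which measured 4.43 and 4.15 FPKM in RVC and 2.31 and 2.59 in FF. Jchain, which links IgA units, measured 99.4 and 85.8 against 68.9 and 82.1 FPKM without overlap. Xbp1, a secretory transcription factor, measured 55.3 and 50.7 against 51.3 and 44.1 FPKM, and Derl3 was under 0.5 FPKM everywhere. Of the 8 plasma cell genes tested, 6 had a positive log2 fold change and 2 a negative one. These 2 were Fkbp11 (-0.292), lower in RVC without overlap, and Txndc5 (-0.102), whose groups overlapped. The 12 B cell genes summed to only 5.18 and 5.93 FPKM in RVC and 1.64 and 8.72 in FF, with Cr2, Fcer2a, Blk and Fcrla among those under 0.5 FPKM in every library. Smooth muscle genes were higher in RVC at an unadjusted limma p under 0.05 in 8 of 8 (all genes 9.38%), summing to 1116 and 1659.96 FPKM against 688 and 740. Of the 7 epithelium genes tested, none passed that threshold in either direction, and the list summed to 5258 and 4975 FPKM against 5075 and 4537. Of the 2 lymphoid stroma genes tested, Ccl21a measured 63.7 and 82.1 FPKM against 31.6 and 33.2, and Cxcl13 overlapped. Of the 2 germinal centre genes tested, Bcl6 was higher at that threshold and Fas overlapped. No T cell gene entered the test.

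Rag1, Rag2 and Dntt, the recombination genes of developing lymphocytes, were listed at 0 in all 4 libraries. Of the octamer factors, Pou2f1 measured 3.57 and 3.55 FPKM in RVC and 3.99 and 3.94 in FF, the coactivator gene Pou2af1 0.779 and 0.769 against 0.348 and 0.673, and Pou2f2 at most 0.161.

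Reads from related genes limit the values of single members. Of the 65, 34 share at least 1 stretch of 100 bases with another member, and the median identity to the nearest member was 95.2%. Among the closest pairs were Igkv6-20 with Igkv6-29 (98.7%), Igkv5-43 with Igkv5-45 (98.4%) and Igkv17-121 with Igkv17-127 (97.5%), for which Cufflinks divides shared reads by likelihood. Somatic mutation, which changes the sequence of expressed variable genes, was not measured.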

How the data were processed

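FPKM per transcript with lower and upper confidence bounds, coverage (a signal of read depth per base) and transcript length were deposited by the authors, per the file headers. TopHat 2.1.1 and Cufflinks 2.2.1 with default parameters and GRCm39 are named in the submitters' processing notes and design text. Libraries were made with rRNA depletion and sequenced as 150-bp pairs, per the labels' protocols. The annotation release, strand setting and depth are not given in the sources used here. Coverage served only as an alternative for usage shares.

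Transcript FPKM and its confidence bounds were summed per gene, giving 160 Igkv members, all with estimates of status OK. Usage share, entropy and overlap were computed with pandas 2.3.3. Genes with a mean median-ratio scaled FPKM of at least 1, a transcript of at least 300 nt and all estimates OK entered limma 3.58.1 in R 4.3.3 (trend, two-sided, no covariate, pseudocount 1, Benjamini-Hochberg over 13771 genes, threshold 0.05). The test was checked on simulated data whose variances followed those of all genes tested. Igkv genes varied more within groups, so the check does not describe the test for them. Promoters, recombination signals and identities were read from GRCm39 with GENCODE vM39, with starts counted from 1.

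Named genes were the 10 of highest mean share, the leader of each library, library-specific genes, the 5 steadiest of the 40 most used, and the 5 largest fold changes each way among genes whose groups did not overlap (only 2 were lower). Others named were chosen after their values were seen. Members and lists were chosen with earlier results of these data known.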

Additional observations from a re-analysis of the deposited data

How the results depend on the processing

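The number of Igkv genes past the limma threshold, 0 in the fit reported (26 at an unadjusted p under 0.05), was 1 with a pseudocount of 0.1, 1 without scaling, 1 with upper-quartile scaling, and 1 to 9 with each library left out, where the lone library of a group is assumed to vary like the others. It stayed 0 without a low-value filter, with a mean minimum of 5 FPKM, without a length minimum and without the trend. A replicate block on sample number gave 17 (112 of all 13771 genes), all higher in RVC, and a crossed replicate block, added after seeing the data, gave 4 (12 of all genes). Deviations of same-numbered libraries correlated at -0.13 over all genes and -0.25 over the Igkv genes. These values cannot show whether same-numbered samples share an origin. The median log2 fold change stayed positive in all of these settings and with each library left out, from 0.46 to 0.95. A fit with a library left out assumes that the lone library of its group varies like the others. The summed Igkv difference was 0.29 to 1.07 on the log2 scale with a library left out, lowest without FF 1.

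Over the fits with a library left out, directions turned for Igkv10-96 (-0.51 to 0.78, and -0.09 without FF 1), Igkv8-27 (-1.28 to 0.44), Igkv6-15 (-0.0055 to 1.87), Igkv10-94 (-0.74 to 0.59, and 0.43 without RVC 2), Igkv6-25 (-1.76 to 0.18) and Igkv9-123 (-1.61 to 0.32, and 0.19 without FF 1). The cause was not tested. With only members at a mean of 1 FPKM or more, the effective number was 37.4, 34.8, 34.0 and 32.7. Library-specific genes numbered 11 at 60%, 2 at 80% and 2 among genes whose mean reached 5 FPKM. Without the 10 most used genes, overlap was 59.4% and 67.5% for RVC 1 with FF 1 and 2, 51.9% for RVC 2 with FF 2 and 55.2% between the FF libraries. Mean usage shares of 20 genes moved by less than 1 SD in 60 of 60 recomputations, which included coverage and FPKM times length. Igkv sums from coverage or from FPKM times length were not run. Read depth is unknown, so no counting interval could be given.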
